A study of Mus musculus with 41 samples.

Results

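The Myc, Max and Mxd network was followed here as 8 genes: the activators Myc and Mycn, their partner Max, and the antagonists Mxd1, Mxd3, Mxd4, Mxi1 and Mnt. The platform annotation assigned 19 probe sets to these genes. They were taken as 8 of the 18193 genes on the array, with 1 probe set per gene, the one with the highest mean signal, as the main readout. The 41 arrays came from sorted B cell precursors of C57BL/6 mice carrying wild-type Pax5, without treatment. There were 7 arrays each of common lymphoid progenitors (CLP) and of Hardy fractions A and B, and 5 arrays each of fractions C, D, E and F. The labels gave no sorting gates, tissue, age or animal of origin, so p-values measure the spread between these RNA samples, which may be partly technical.

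Myc and its relative N-Myc (from Mycn) are basic helix-loop-helix proteins that bind the E-box, a short DNA motif, only as a pair with Max, and then mostly raise transcription of genes for growth, nucleolar work and metabolism. Mxd proteins, Mxi1 and Mnt compete for Max and for the same motif and bring Sin3 and histone deacetylases, which lower transcription. In the Hardy scheme the fractions run from the earliest committed precursors through pro-B and cycling pre-B cells to resting small pre-B cells, immature B cells and mature B cells, and Myc is known for the bursts of division in this pathway. Proliferation genes did not follow these names at every step, as given below.

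In build GRCm38.p6 (RefSeq) the gene of Myc lies at chr15:61985341-61990361 and that of Mycn at chr12:12936093-12941836. Max lies at chr12:76937269-76962323, Mnt at chr11:74830806-74845725 and Mxi1 at chr19:53310128-53373293. Mxd1 lies at chr6:86647044-86669234, Mxd3 at chr13:55325170-55329900 and Mxd4 at chr5:34176580-34187710.

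The E-box on which both arms of the network meet, CACGTG, was looked for in RefSeq promoters (build GRCm38.p6, 250 bases before to 50 after a start site). The motif reads the same on both strands, so 1 search covers both. The table held promoters of 7 members, and 3 of these 7 genes carried the motif, against 7.15% of all 32851 promoters of that length and 8.09% of the 27025 genes. Those 3 windows are shown because they hold the letters that the network binds, near start sites of its own genes. Capitals mark the E-box, and each sequence reads 5′ to 3′ on the gene's strand.
Max promoter, chr12:76962246-76962263, minus strand: ggtgagcccggtCACGTG
Mnt promoter, chr11:74830789-74830818, plus strand: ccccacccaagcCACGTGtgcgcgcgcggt
Mxd4 promoter, chr5:34187912-34187941, minus strand: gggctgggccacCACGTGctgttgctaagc
The first base of the E-box lay 3 bases before the listed start in Max, 123 before it in Mnt and 219 before it in Mxd4. Against the whole gene spans above, the Max window lies inside the gene, the Mnt window crosses its start and the Mxd4 window lies before it. A match describes letters in these windows and says nothing of occupancy in these cells.

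The arrays differed in quality between populations. Pearson's r of an array with its own population ran from 0.827 to 0.956 in fraction A, from 0.927 to 0.978 in B and at or above 0.961 elsewhere. The 3′ to 5′ signal ratio of Gapdh, a sign of RNA shortening, ran from 6.4 to 33.8 in A, from 4.14 to 10.8 in B and from 3.56 to 7.24 in the other populations. Fraction A also went partly against its label: the summed signal of 6 NK cell markers was 37279 to 62256 in A and at most 7342 on any other array, while the sum of 9 B lineage markers ran from 2985 to 67286 in A with Pax5 at a mean of 122. The neutrophil and monocyte markers summed to 2567 to 19674 in B, 56258 to 78354 in C and 18288 to 24866 in D, so every C array was above every B and every D array. The sum was 101726 on array 2 of fraction E. Sums of 5 plasmacytoid dendritic cell markers were 5349 to 12578 in A and at most 4529 elsewhere, those of 6 T cell markers at most 5164 on any array, and those of 4 erythroid markers at most 2247. The part of these cells or of RNA quality in any difference below was not tested, and in bulk samples fewer cells of a type cannot be told apart from less RNA per cell.

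All 8 members passed the filter on low signals. Across the 7 populations, 7 of 8 varied by limma's moderated F-test at a Benjamini-Hochberg adjusted p under 0.05, where 73.3% of all 11951 genes tested did, so the share is near the background. The adjusted p was 3.15e-16 for Myc, 1.68e-07 for Mycn, 1.46e-05 for Mxi1 and 9.77e-05 for Mnt. It was 0.00712 for Mxd1, 0.0129 for Mxd3 and 0.0194 for Mxd4, and Max did not pass at 0.181. Signals of different probe sets are not on one scale, so levels were compared only within a gene.

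**Figure D1:**
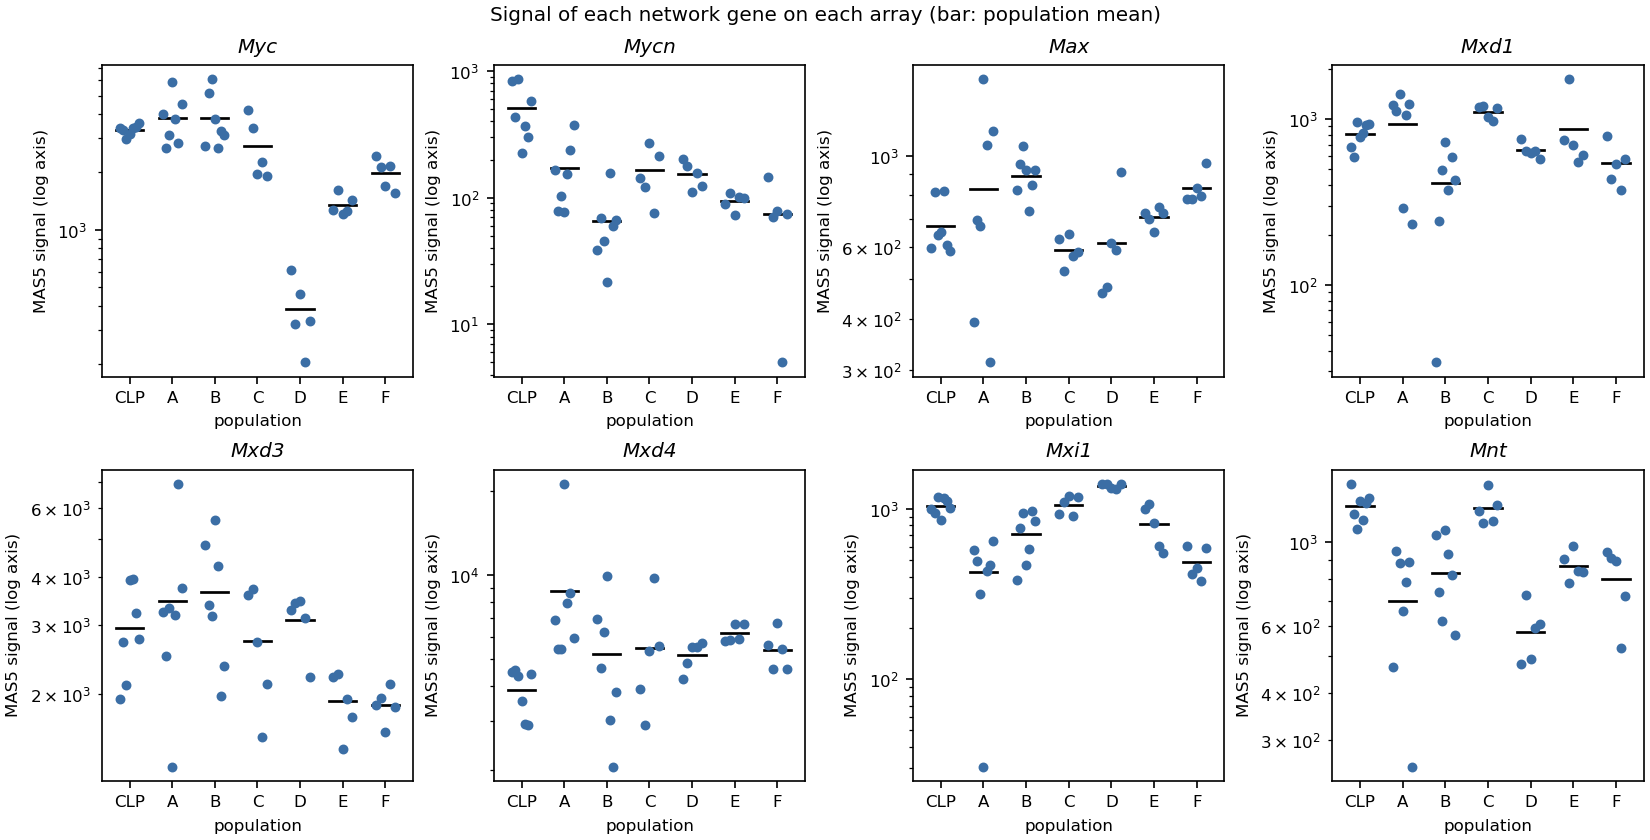
MAS5 signal (log axis) of the main probe set of each of the 8 genes on each of the 41 arrays, by population; dots are arrays and bars are population means. Myc lies between 203.3 and 617.1 on the 5 arrays of fraction D, below its lowest signal of 1215.1 on all other arrays, and Mycn is highest in CLP.

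Myc was high from CLP to fraction C, lowest in D, and intermediate in E and F. Its signal on the 7 CLP arrays ran from 2979.8 to 3599.3 with a median of 3393. In A it ran from 2653.3 to 5906.2 (median 3796) and in B from 2678.8 to 6077.8 (median 3276.4), so these 3 populations overlapped. The fraction C arrays gave 4190.3, 3376.3, 1961.4, 2250.8 and 1904.6. Fraction D gave 617.1, 321.5, 463.1, 203.3 and 334. Every D array was thus below every C array, and a gap from 617.1 to 1904.6 lay between them.

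From C to D, Myc fell by 2.73 ± 0.24 (SE) on the log2 scale, 6.65-fold, with an adjusted p of 3.14e-11 (limma). The neutrophil and monocyte sum was also lower on every D array (at most 24866) than on every C array (at least 56258), and its part in the result was not tested. In E the signals were 1263.6, 1605.1, 1215.1, 1245.4 and 1430.2, all above D. The rise from D to E was 1.80 ± 0.24, 3.47-fold, with an adjusted p of 4.14e-07. In F they were 2420.7, 2116.1, 1699.2, 2147.3 and 1550.9. The highest E array lay above the lowest F array, and the F minus E difference of 0.53 ± 0.24 did not pass (adjusted p = 0.739). A fit of those 2 populations alone gave the same difference with an adjusted p of 0.0277.

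Mature fraction F stayed below CLP: Myc fell by 0.75 ± 0.22 from CLP to F (adjusted p = 0.00551), and no F array reached the lowest CLP array. Ordered by mean log2 signal, Myc ran A, B, CLP, C, F, E and D, and only the last neighbours, E and D, differed beyond their spread. From B to C its difference of -0.49 ± 0.22 did not pass (adjusted p = 0.103), and passed in 4 of 55 settings, among them median centring (-0.91) and the fit without array 1 of C (-0.66). The drop to D, the rise to E and the deficit of F against CLP passed in all 55 settings tried, with ranges of -2.91 to -2.46, 1.57 to 1.97 and -0.82 to -0.66. A, B and CLP differed by at most 0.16 on the log2 scale.

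Mycn, best known from early progenitors and neural tissue, was highest in CLP. Its signal there ran from 224.5 to 858 with a median of 431.7. In A it ran from 76.7 to 375.8 (median 153.1), overlapping CLP, and in B from 21.7 to 156.6 (median 60.2), with no overlap with CLP. The signals in C were 143.8, 121.7, 269, 75.9 and 211.5, and in D 203.7, 177.8, 111.3, 157.6 and 124.3. In E they were 89.5, 108.3, 72.3, 100.8 and 98.7, and in F 144.4, 70, 78.5, 5 and 74.4. Mycn was a low-signal gene: it reached its array's median on 7 of 7 CLP arrays, on 1 of 7 in B and on 0 of 5 in E.

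Mycn fell by 1.45 ± 0.32 from CLP to A (adjusted p = 0.000354) and by 1.00 ± 0.32 from A to B (adjusted p = 0.0136). Over both steps it fell by 2.45 ± 0.32 (adjusted p = 1.28e-07). As the B signals are low, the size depends on the pseudocount: over 53 settings, all called, it ran from -3.03 to -1.66, both ends set by the pseudocount. It rose by 1.02 ± 0.35 from B to C (adjusted p = 0.0277), and F minus CLP was -2.39 ± 0.35 (adjusted p = 3.73e-07; -3.16 to -1.61 over the settings). In the order CLP, C, D, A, E, F and B, only CLP and its neighbour C differed beyond their spread (C minus CLP -1.43 ± 0.35, adjusted p = 0.00436, in a comparison where 8.3% of all genes were called). Where Myc dropped, between C and D, Mycn differed by -0.01 ± 0.38 (adjusted p = 0.995).

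The low signals limit the smaller Mycn steps. The fall from A to B lost its call without fraction A arrays 4, 6 and 7 (-0.75, adjusted p = 0.0883) and in the fit of those 2 populations alone (adjusted p = 0.084). The rise from B to C was 0.67 after quantile normalization and 0.60 after median centring, neither called, and it lost its call without array 4 of B (0.90), array 3 of C (0.85) or array 5 of C (0.92).

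Max, the obligate partner of both arms, held the steadiest level. Its population means ran from 589 ± 47.8 (SD, n = 5) in C to 895 ± 103 (SD, n = 7) in B. The D arrays gave 463.2, 479.2, 613.9, 588.7 and 912.9 and the C arrays 625.9, 524.6, 644.8, 567.8 and 581.8, which overlapped, with a difference of 0.01 ± 0.25. No neighbours in its order of means differed beyond their spread. Max was called in none of the 8 comparisons by limma. At an unadjusted p under 0.05 there was 1, C against B (-0.57 ± 0.24, adjusted p = 0.0719), and there every B array was above every C array. That difference passed under 9 of 55 settings, among them quantile normalization (-0.75) and median centring (-0.99).

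**Figure D2:**
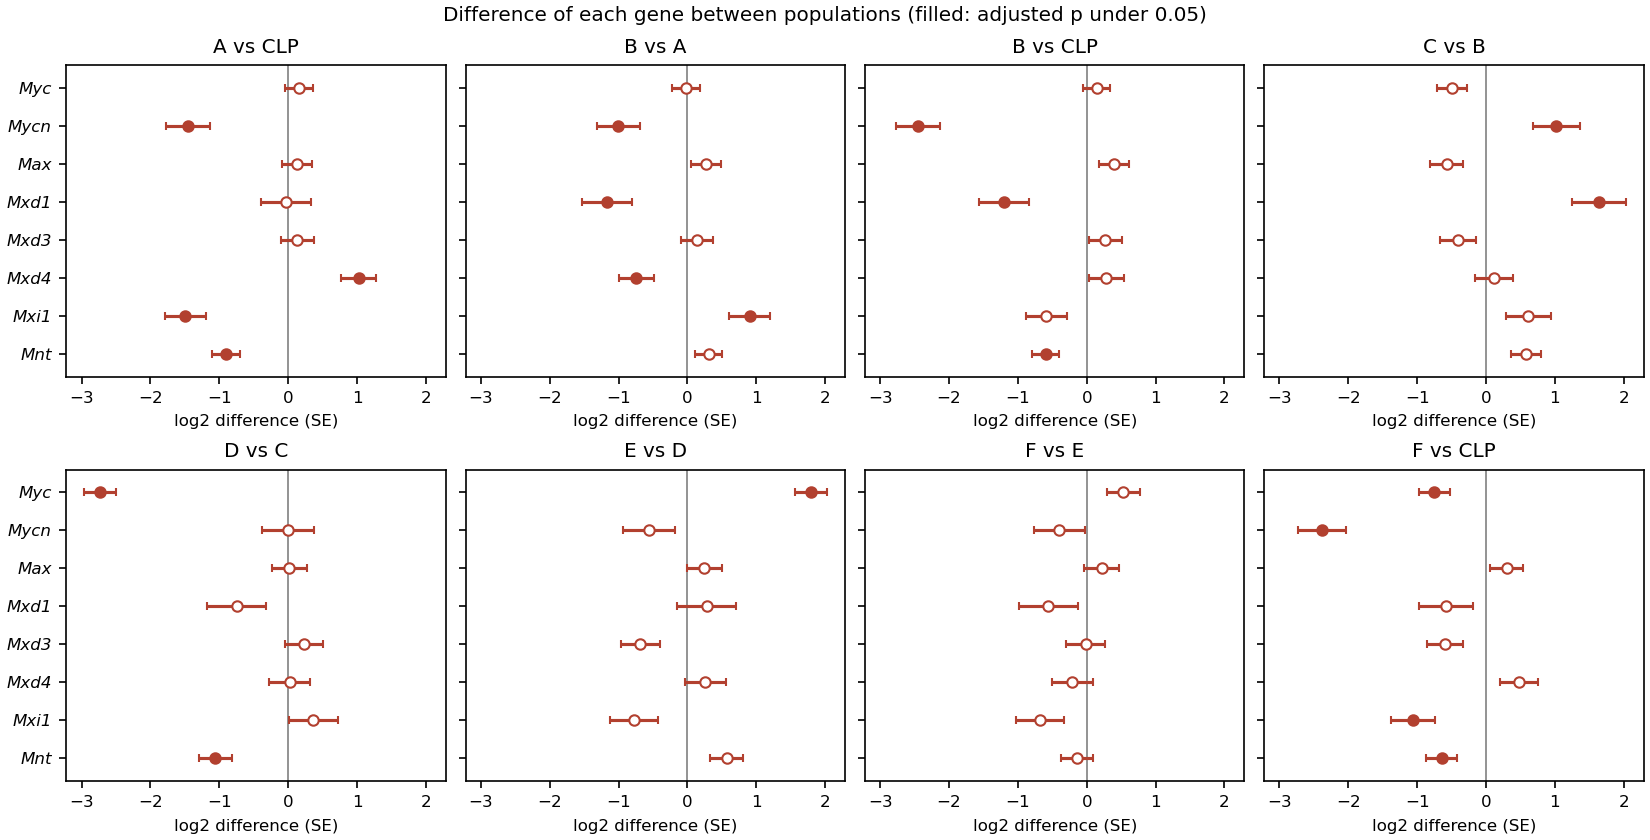
Difference of each of the 8 genes in each of the 8 comparisons (log2 of signal + 32, first population minus second; whiskers are SE). Filled points have an adjusted p under 0.05: the D against C panel has filled points only at Myc and Mnt, the E against D panel only at Myc, and the F against E panel has none.

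The antagonists did not move as a group. Between CLP and A, Mxd4 rose while Mxi1 and Mnt fell. With the fall of Mycn that made 4 of 8 members called, where 37.1% of all genes were: 1 was higher, as 11.5% of genes were, and 3 were lower, as 25.6% were. From A to B, 4 were called (background 31.3%), of which 1 rose (16.9%) and 3 fell (14.5%). From CLP to B, 3 were called (27.9%), and all 3 fell (19.1%) while none rose (8.81%). From B to C, 2 were called (22.9%), and both rose (14.2%) while none fell (8.75%). The step from C to D called 2 (21.3%), and both fell (13.8%) while none rose (7.51%). The step from D to E called 1 (8.11%), which rose (3.9%), and none fell (4.21%). From E to F none was called by limma (0.469%), where 1 of 8, Myc, had an unadjusted p under 0.05. From CLP to F, 4 were called (42%), and all 4 fell (26.7%) while none rose (15.2%). With 8 genes, these counts are near their backgrounds.

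Mxd1, an antagonist that rises as many blood cells stop dividing, was low in B and high in C. Its B signals ran from 34 to 724 with a median of 425. In C they were 1176.7, 1201.6, 1021.1, 967.3 and 1160.9, each above every B array. The rise from B to C was 1.65 ± 0.39, 3.13-fold (adjusted p = 0.00178). Before it, Mxd1 had fallen by 1.17 ± 0.36 from A to B (adjusted p = 0.0113) and by 1.20 ± 0.36 from CLP to B (adjusted p = 0.0103). The neutrophil and monocyte sum was also higher in every C array than in every B array, and on array 2 of E, where that sum was 101726, Mxd1 was 1729.4 against 548.1 to 740.7 on the other E arrays.

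The Mxd1 result rested on 1 of its 3 probe sets. From B to C, probe set 1434830_at gave the rise above, while 1455104_at gave 0.17 ± 0.41 and 1422002_at -0.07 ± 0.47, neither called. With the mean of the 3 probe sets, the change from B to C was 0.58 (adjusted p = 0.121) and that from CLP to B -0.24 (adjusted p = 0.507). Without array 1 of fraction B, the lowest, the fall from A to B was 0.76 and lost its call (adjusted p = 0.0509).

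Mxd3, an Mxd protein known for being present in dividing cells, had its lowest means in E and F with the probe set used. Its mean signal was 2946 ± 800.1 in CLP and 3659 ± 1314 in B (SD, n = 7 each). In D it was 3276.7, 3416.4, 3463.6, 3131.3 and 2206.5, and in E 2208.1, 2250.7, 1443, 1934.6 and 1740.5. All D arrays but array 5 were above every E array. The E minus D difference was -0.69 ± 0.28 (adjusted p = 0.158), and Mxd3 was called in none of the 8 comparisons by limma. Its unadjusted p was under 0.05 in 2 of them, E against D and F against CLP (-0.60 ± 0.26, adjusted p = 0.0598). Against B, both E (-0.86 ± 0.26, adjusted p = 0.00841) and F (-0.87 ± 0.26, adjusted p = 0.00671) were lower, in comparisons where 37.8% and 40.4% of all genes were called. In the fit of D and E alone the difference passed (adjusted p = 0.000995), as did F against CLP in 11 of 55 settings.

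Mxd4, an antagonist linked to quiescent cells, was lowest in CLP and highest in A. Its CLP signals ran from 2880.5 to 4560.5 (median 4355.2) and its A signals from 5407.2 to 21315.7 (median 6911.2), with no overlap. The rise was 1.03 ± 0.25, 2.04-fold (adjusted p = 0.00141). It then fell by 0.74 ± 0.25 from A to B (adjusted p = 0.0226), where the signals of both populations overlapped. From B on, no comparison was called with the probe set used: the D arrays gave 4216.2, 4825.9, 5515.5, 5519.8 and 5715.4, within the range of the C arrays.

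Both Mxd4 calls depended on choices. The mean of its 4 probe sets gave 0.16 from CLP to A (adjusted p = 0.511), since 1422574_at gave 0.34 ± 0.31 and 1434379_at -0.69 ± 0.39, neither called. The fall to B lost its call without array 4 of A (-0.50, adjusted p = 0.0918), array 5 of B (-0.64) or array 6 of B (-0.55). From B to C, where the probe set used gave 0.12 ± 0.28, other Mxd4 probe sets rose. The rise was 1.95 ± 0.42 for 1434379_at (adjusted p = 0.000653) and 0.94 ± 0.34 for 1422574_at (adjusted p = 0.0409). With the mean of the probe sets it was 0.91 (adjusted p = 0.00114).

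Mxi1, another Sin3-binding antagonist, dipped in A and, with the probe set used, peaked in D. Its CLP signals ran from 864.6 to 1172.8 (median 1008.3) and its A signals from 30.6 to 650.4 (median 466.2), with no overlap. It fell by 1.49 ± 0.30 (adjusted p = 0.000108). In B it ran from 383.8 to 971.8 (median 776.5), a rise of 0.91 ± 0.30 (adjusted p = 0.0172). In D it was 1394.1, 1407.6, 1324.2, 1303.8 and 1408.4, and every one of these arrays was above every other Mxi1 signal in the data. In E it was 997.7, 1072.2, 825.1, 609.5 and 550.6, and in F 604.3, 413.5, 451, 376.6 and 591.

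F minus D was -1.45 ± 0.35 (adjusted p = 0.00297; 11.5% of all genes called), and F was 1.06 ± 0.33 below CLP (adjusted p = 0.00762). The steps from C to D (0.37 ± 0.35) and from D to E (-0.78 ± 0.35) were not called in the fit of all arrays, with adjusted p of 0.493 and 0.224. In fits of only those 2 populations both passed (adjusted p = 0.0266 and 0.00123). The second Mxi1 probe set, 1425732_a_at, fell by 1.17 ± 0.31 from CLP to A and by 0.88 ± 0.33 from CLP to F, both called, but gave 0.26 ± 0.31 from A to B, uncalled. It was also called from B to C (1.03 ± 0.33, adjusted p = 0.021) and from CLP to B (-0.91 ± 0.31, adjusted p = 0.025). There the probe set used gave 0.62 ± 0.33 and -0.59 ± 0.30, neither called. From C to D the second gave 0.07 ± 0.36 (adjusted p = 0.925), with D arrays at 485.3 to 610 and C arrays at 441.9 to 649.7. From E to F the second gave 0.03 ± 0.36 and the one used -0.68 ± 0.35, neither called. With the probe set used, the rise from A to B was 0.47 without array 4 of A (adjusted p = 0.0534).

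Mnt, the broadly present antagonist thought to balance Myc directly, was high in CLP and C and low in D. Its CLP signals ran from 1084.4 to 1429.7 (median 1270.8). It fell by 0.91 ± 0.20 in A (adjusted p = 0.000427), with no overlap, and was 0.60 ± 0.20 lower in B than in CLP (adjusted p = 0.022). The C arrays gave 1213.6, 1124.3, 1418.8, 1138.5 and 1254.5, and the D arrays 477.7, 725.8, 491.4, 592 and 607, with no overlap. Between C and D it fell by 1.06 ± 0.24, 2.08-fold (adjusted p = 0.00104), in the same step as Myc and as the neutrophil and monocyte sum, and that call held in all 55 settings. The E arrays, at 900.8, 782, 978.9, 838.1 and 835.9, were all above D, but the rise of 0.57 ± 0.24 did not pass (adjusted p = 0.167).

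F was 0.65 ± 0.22 below CLP for Mnt (adjusted p = 0.016), a call lost without array 4 of F (-0.51, adjusted p = 0.0768) and with the mean of its probe sets (-0.25). The B against CLP call was lost without array 3 or array 7 of B (-0.54 and -0.52) and after median centring (-0.17). The C minus B difference, 0.58 ± 0.22, had an adjusted p of 0.0501 and passed in 18 of 55 settings. The other Mnt probe set, 1418193_at, stayed below the filter, with at most 34.1 on any array.

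**Figure D3:**
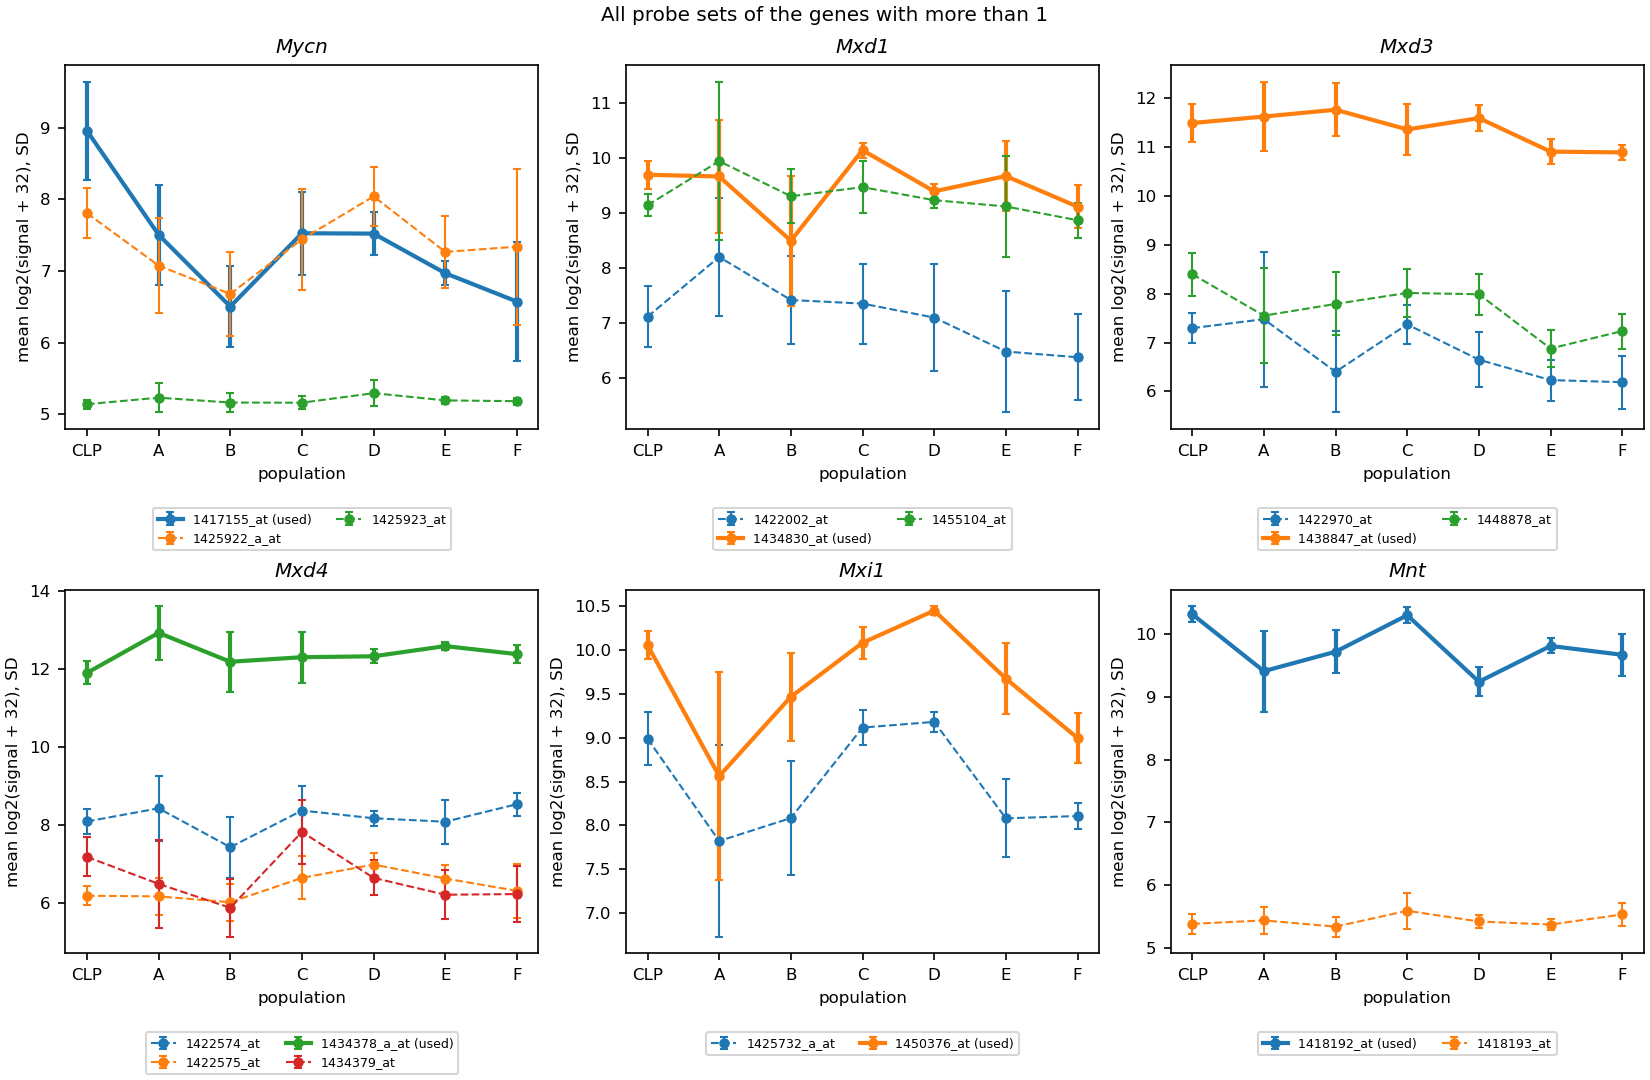
Mean log2(signal + 32) with SD of every probe set of the 6 genes that have more than 1, by population; the thick solid line is the probe set used. Both Mxi1 lines fall from CLP to A and are highest in D, though 1425732_a_at only by 9.18 against 9.12 in C. Only 1 of the 3 Mxd1 lines is lowest in fraction B and highest in C.

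The further probe sets of Mycn and Mxd3 agreed in part with those used. For Mycn, 1425922_a_at also fell from CLP to B (-1.13 ± 0.33, adjusted p = 0.0104), but gave -0.47 ± 0.37 from CLP to F (adjusted p = 0.318), where the probe set used fell by 2.39. Its highest mean was in D, at 240 ± 80.0 (SD, n = 5), against 198 ± 63.7 in CLP (SD, n = 7). Mycn probe set 1425923_at never exceeded 17.1. For Mxd3, 1448878_at fell from CLP to F (-1.16 ± 0.34, adjusted p = 0.006), and so did 1422970_at (-1.11 ± 0.43, adjusted p = 0.0342). Both fell where the probe set used did not pass. Earlier falls were also called, that of 1448878_at from CLP to A (-0.85 ± 0.31, adjusted p = 0.0325) and that of 1422970_at from A to B (-1.08 ± 0.39, adjusted p = 0.034). The probe set used gave 0.13 ± 0.24 and 0.14 ± 0.24 in these steps.

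Myc and Mycn were then set against each antagonist within the same array. As the pseudocount was added to each signal, the scaling of an array cancels only in part, and least for low signals such as those of Mycn. The dependence of the ratio calls on the pseudocount and the normalization is given at the end. Each log2 ratio, an activator minus an antagonist, was compared between populations by an exact two-sided permutation test over arrays, with Benjamini-Hochberg adjustment over all 88 tests (11 ratios, Myc minus Mycn among them, in 8 comparisons), of which 51 passed. A ratio shows only that its genes changed unequally. The 5 ratios of one activator share its values, so they are not 5 independent results. Ratios to genes outside the network were not taken, so the counts of ratios that passed or did not overlap have no background.

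Between CLP and B, 3 of the 5 Myc ratios rose, those to Mxd1 (1.34), Mxi1 (0.73) and Mnt (0.74), with adjusted exact p from 0.0123 to 0.0192. From B to C the ratios to the same 3 antagonists fell, by 2.14 for Mxd1 without overlap, and with changes of -1.11 for Mxi1 and -1.07 for Mnt (adjusted exact p from 0.0123 to 0.0414).

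From C to D, all 5 Myc ratios fell and no array overlapped between these populations. Myc minus Mxi1 went from 1.28 ± 0.62 in C to -1.82 ± 0.53 in D (SD, n = 5 each; exact p = 0.00794, the smallest that 5 against 5 allows; adjusted p = 0.0179). The change was -2.96 for Myc minus Mxd3, -2.76 for Myc minus Mxd4 and -1.98 for Myc minus Mxd1, each with the same exact p. Myc minus Mnt changed least, by -1.68, as Mnt fell too. Of the antagonists, only Mnt passed from C to D in the fit of all arrays. Mxd1 gave -0.75 ± 0.43 (adjusted p = 0.217) with every D array below every C array, and it passed in the fit of those 2 populations alone (adjusted p = 0.000317).

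From D to E all 5 Myc ratios rose, by 1.23 (Mnt) to 2.57 (Mxi1), and 4 of them did not overlap. The adjusted p was 0.0285 for the Mnt ratio and 0.0179 for each of the others. From E to F all 5 rose again, by 0.55 (Mxd3) to 1.21 (Mxi1), with adjusted exact p of 0.0179 for Mxd1 and Mxi1 and 0.0285 for the other 3. Myc alone did not pass in that step in the fit of all arrays (limma, unadjusted p = 0.0299, adjusted p = 0.739). It passed in the fit of E and F alone (limma, adjusted p = 0.0277). The ratios were adjusted over 88 permutation tests, and Myc by limma over all genes tested. Whether the ratios changed more clearly than Myc itself therefore cannot be read from which of them passed. With the mean of all probe sets of a gene, 2 of the 11 ratios passed from E to F, against 6.

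In F the Myc ratios were close to those of CLP for 4 antagonists: the differences ran from -0.17 to 0.31, with adjusted exact p from 0.157 to 0.637. The exception was Myc minus Mxd4, at -1.43 ± 0.34 in F (SD, n = 5) against -0.20 ± 0.32 in CLP (SD, n = 7), with no overlap (exact p = 0.00126, adjusted p = 0.0111). With the probe set used, Myc thus stood lower against Mxd4 in F than in CLP. That Mxd4 probe set itself gave 0.48 ± 0.28 from CLP to F, while 1422574_at gave 0.44 ± 0.34 and 1434379_at -0.95 ± 0.42. None of these was called, and ratios to the other Mxd4 probe sets alone were not taken. In A, Myc minus Mxd4 differed from CLP by -0.87 (adjusted exact p = 0.0123), while Myc minus Mxi1 was higher by 1.65 (adjusted exact p = 0.0103).

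**Figure D4:**
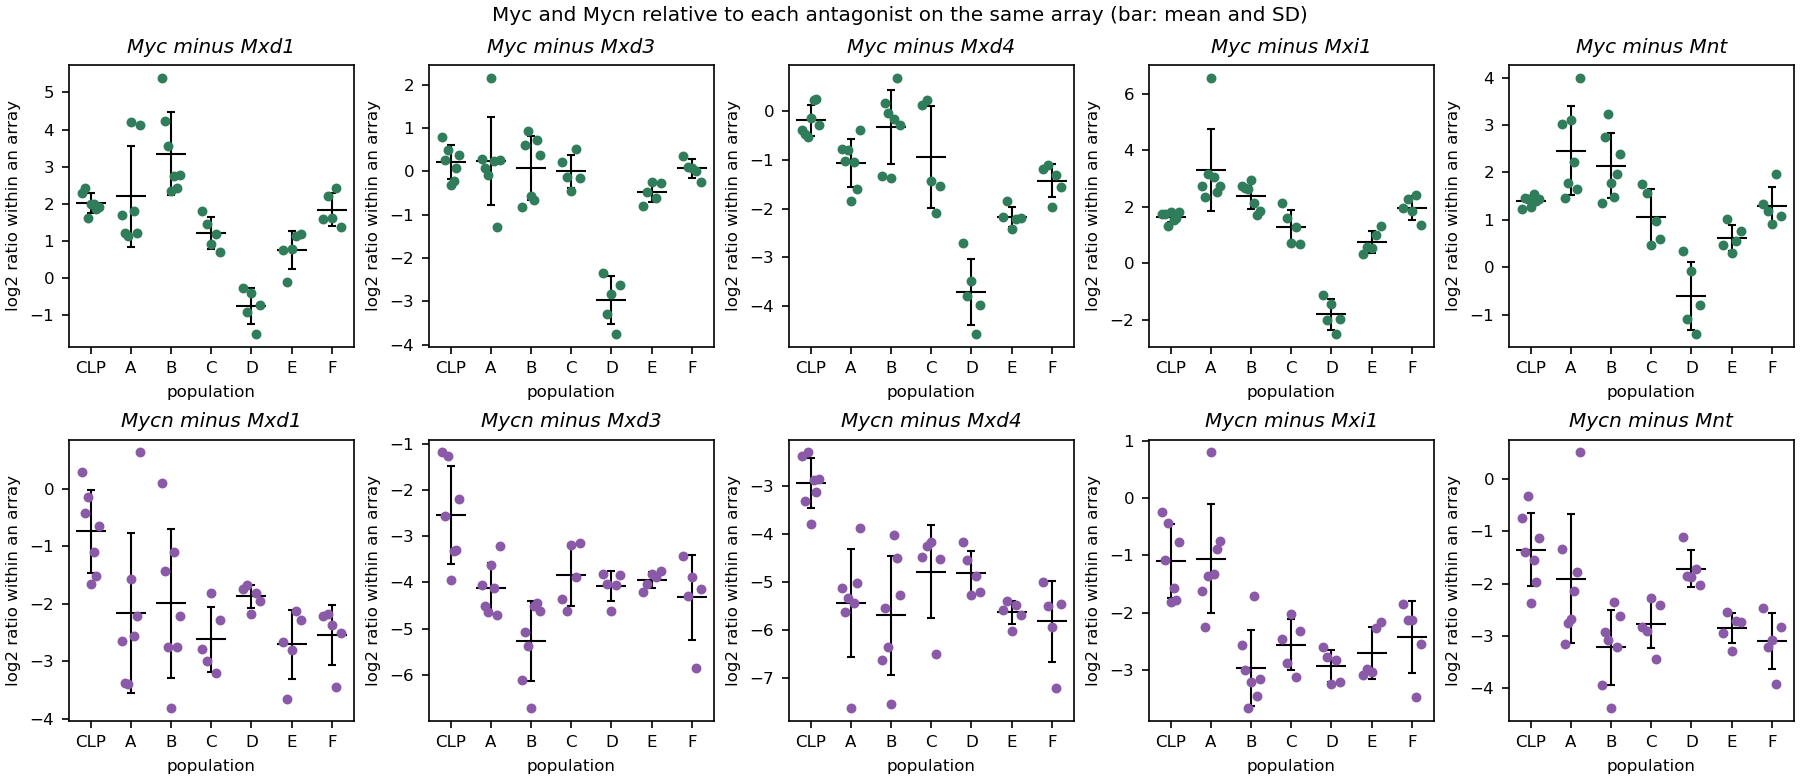
Log2 ratio of Myc (upper panels) and Mycn (lower panels) to each of the 5 antagonists within an array, by population; dots are arrays, bars are means with SD. With the probe sets used, all 5 Myc ratios are lowest in fraction D, at means of -0.61 to -3.70, and all 5 Mycn ratios are lower in F than in CLP.

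Mycn ratios followed another course. Between CLP and F all 5 fell, with changes of -1.33 (Mxi1) to -2.87 (Mxd4), with adjusted exact p from 0.0111 to 0.0217 and no overlap for 4 of them. These ratios rest on the Mycn probe set used. Mycn probe set 1425922_a_at gave only -0.47 ± 0.37 from CLP to F (limma, adjusted p = 0.318). Ratios with it alone were not taken. From CLP to B, 4 of 5 fell, with changes of -1.86 to -2.74, and Mycn minus Mxd1 did not pass (-1.26, adjusted exact p = 0.0774). The only call among them from C to D was Mycn minus Mnt, which rose by 1.05 (adjusted exact p = 0.0179). Mycn minus Mnt then fell by 1.12 from D to E, with -0.82 for Mycn minus Mxd4 and -0.83 for Mycn minus Mxd1, all 3 called.

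Myc minus Mycn set the activators against each other. This ratio was 2.75 ± 0.70 in CLP and 5.35 ± 0.83 in B (SD, n = 7 each), with no overlap (exact p = 0.000583, the smallest possible; adjusted p = 0.0103). It was 3.84 ± 0.90 in C and 1.11 ± 0.58 in D, then 3.46 ± 0.12 in E and 4.39 ± 0.87 in F (SD, n = 5 each). Between C and D it fell by 2.73, from D to E it rose by 2.35 and from E to F by 0.93, each without overlap (adjusted exact p = 0.0179). The step from A to B, 0.99, did not pass (adjusted exact p = 0.0712).

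Of 6 symbols listed for the extended Max and Mlx network, 5 were found in the annotation and 4 were tested: Mycl (L-Myc), Mga, Mlx and Mlxip. Mycl was called in 5 of 8 comparisons. It rose by 0.75 from CLP to A (adjusted p = 0.0265), fell by 3.24 ± 0.27 from A to B (adjusted p = 4.27e-13), and stayed 1.61 ± 0.30 lower in F than in CLP (adjusted p = 2.38e-05). Mlxip, a partner of Mlx, fell by 1.28 from CLP to A and rose by 1.01 from A to B. Mga rose by 0.54 from CLP to F, and Mlx was not called. None of the 4 was called from C to D.

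Sin3 and histone deacetylase genes, through which the antagonists act, moved both ways. Of 9 tested, 3 rose and 3 fell from CLP to A, where 11.5% of all genes rose and 25.6% fell. Among them Rbbp4, a histone-binding subunit, rose by 0.91 ± 0.16 and the deacetylase Hdac1 fell by 1.28 ± 0.17 (adjusted p = 1.28e-05 and 1.58e-07). Between C and D, where 7.51% of all genes rose and 13.8% fell, 1 rose and 2 fell, the latter Hdac1 (-0.66) and Sin3b (-0.58), a Sin3 scaffold. From CLP to F, where 15.2% rose and 26.7% fell, 2 rose and 4 fell, with Sap30, a Sin3 complex subunit, at -1.90 ± 0.17 (adjusted p = 1.90e-12). The median difference of the list was 0.10, -0.09 and -0.43 in these comparisons, against -0.23, -0.10 and -0.15 over all genes tested.

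Of 11 Myc cofactor genes tested, which encode chromatin factors that Myc works with, 5 fell and none rose from C to D, where 13.8% of all genes fell and 7.51% rose. The other 6 did not pass and ran from -0.64 (Ep400) to 0.42 (Ep300). The median was -0.64 against -0.10 over all genes, and the neutrophil and monocyte sum fell in the same step. The largest falls were those of Ruvbl2, a helicase of the TIP60 and INO80 complexes (-1.72 ± 0.32, adjusted p = 9.19e-05), and Trrap, a scaffold of acetyltransferase complexes (-1.55 ± 0.44, adjusted p = 0.00874). From CLP to A, 8 fell and none rose (median -0.72 against -0.23 over all genes, of which 25.6% fell and 11.5% rose). That count was 4 after median centring, where 1804 of all 11951 genes fell. It was also 4 in the fit of those 2 populations alone, where 1567 genes fell. From D to E, where Myc rose, none of the 11 was called in either direction.

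Myc protein turnover genes were largely uncalled from C to D: of 9, 1 fell (13.8% of all genes did), Usp36, a nucleolar deubiquitinase that stabilises Myc (-1.45 ± 0.39, adjusted p = 0.00613). From D to E, 3 fell and none rose, where 4.21% of all genes fell and 3.9% rose. In the fit of D and E alone, 4 fell and 2 rose, where 1460 of all 11951 genes fell and 1523 rose. The falls in the fit of all arrays were led by Cip2a, an inhibitor of the phosphatase that destabilises Myc (-2.08 ± 0.32, adjusted p = 8.11e-06), and Skp2, a ubiquitin ligase subunit tied to the cell cycle (-1.62 ± 0.31, adjusted p = 0.00023). Fbxw7, the ubiquitin ligase subunit that marks Myc for destruction, rose by 1.02 ± 0.20 from CLP to F (adjusted p = 4.28e-05), where 5 others of the list fell (26.7% of all genes fell and 15.2% rose).

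Many genes known as activated by Myc were lower at 2 successive steps. Of 36 tested, 21 fell and none rose from B to C (median -0.76, against 0.19 over all genes, of which 8.75% fell and 14.2% rose). Between C and D, 21 fell and 2 rose (median -0.74 against -0.10, of which 13.8% fell and 7.51% rose). Among the largest falls were those of Npm1, an abundant nucleolar protein, at -1.37 ± 0.22 from B to C, and of Srm, which makes spermidine, and the cyclin Ccnd2, at -2.48 ± 0.32 and -2.59 ± 0.26 from C to D. These genes were named for their size in 1 step, and the steps were not tested against each other. Dkc1, pseudouridine synthase of the nucleolus, passed in both steps, at -1.38 ± 0.23 and -0.78 ± 0.25. Myc itself passed in the second step and not in the first, where it gave -0.49. With quantile normalization the counts were 16 falling from B to C and 23 falling with 1 rising from C to D. Of all 11951 genes, 860 then fell and 1039 rose from B to C, and 1902 fell and 1070 rose from C to D.

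From D to E, as Myc rose, 4 of the 36 rose and 1 fell (median 0.24 against 0.01 over all genes, of which 3.9% rose and 4.21% fell). Ccnd2 rose by 3.06 ± 0.26 (adjusted p = 1.86e-11) and Mybbp1a, a nucleolar protein, by 1.04 ± 0.21 (adjusted p = 0.000444), while the transferrin receptor Tfrc fell by 0.55 ± 0.13. In the fit of D and E alone, 13 rose and 2 fell, where 1523 of all 11951 genes rose and 1460 fell. From CLP to F, 19 fell and 2 rose, against 26.7% and 15.2% of all genes. From CLP to B, 16 rose and none fell, against 8.81% and 19.1% of all genes, where neither Myc nor Max was called. After quantile normalization 5 rose and 1 fell there, where 824 of all 11951 genes rose and 1408 fell. Of 9 genes known as repressed by Myc, 2 rose and 2 fell from C to D, where 7.51% of all genes rose and 13.8% fell. The risers were the CDK inhibitor Cdkn1b (0.80 ± 0.24, adjusted p = 0.0118) and the ferritin chain Fth1 (0.46 ± 0.11, adjusted p = 0.00211). Those that fell were Ndrg1, a stress-response gene (-1.86 ± 0.33, adjusted p = 6.44e-05), and Cebpa, a myeloid transcription factor (-1.57 ± 0.52, adjusted p = 0.024).

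**Figure D5:**
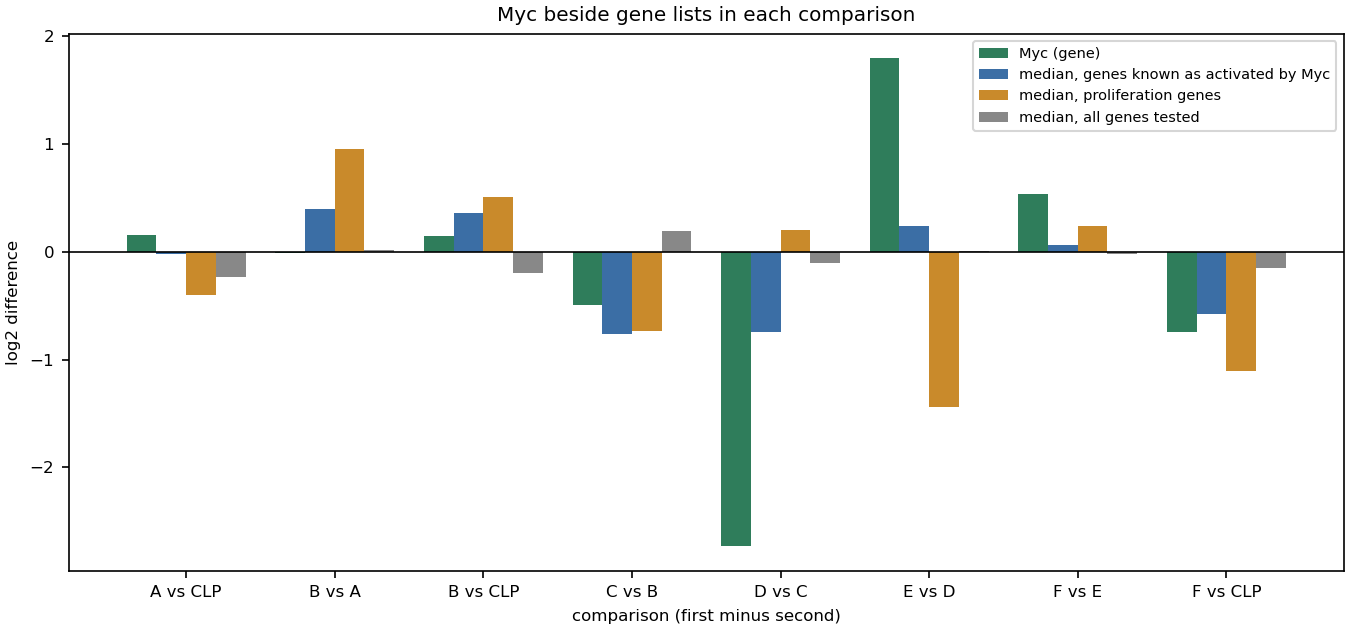
Log2 difference of Myc beside the median difference of 36 genes known as activated by Myc, of 19 proliferation genes and of all genes tested, in each of the 8 comparisons (first population minus second). From C to D, Myc and the activated genes are below 0 (-2.73 and -0.74) while the proliferation genes are at 0.20, and from D to E the proliferation genes fall (-1.44) while Myc rises (1.80).

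Proliferation genes took another course than the activated genes from C to D and from D to E. Of 19 tested, 4 rose and none fell from C to D, where Myc fell, with a median of 0.20; of all genes, 7.51% rose and 13.8% fell. The risers included the mitotic kinase Bub1 (0.81 ± 0.28, adjusted p = 0.0358) and the replication helicase subunit Mcm4 (0.79 ± 0.15, adjusted p = 9.19e-05). From D to E, where Myc rose, 16 fell and none rose (median -1.44, against 0.01 over all genes, of which 4.21% fell). Bub1 gave -2.11 ± 0.28 and Birc5, survivin, -2.05 ± 0.35 (adjusted p = 5.70e-07 and 4.80e-05). The list thus did not follow the Hardy names, by which C holds cycling pre-B cells and D resting small pre-B cells. The reason was not tested. From B to C, 12 fell and none rose, where 8.75% of all genes fell and 14.2% rose. The activated genes fell in that step too. Both lists rose from A to B, with 14 of the 19 and 17 of the 36 activated genes higher and none lower. Of all genes, 16.9% rose and 14.5% fell there. With quantile normalization, 4 rose and 2 fell from C to D, 18 fell from D to E and 4 fell from B to C. Of all 11951 genes, 1070 then rose and 1902 fell from C to D. From D to E 652 of them fell, and from B to C 860. With the mean of probe sets, 3 rose and 3 fell from C to D, and 16 fell from D to E. Of 11050 genes tested with that mean, 917 rose and 1624 fell from C to D, and 630 fell from D to E.

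The E-box was present in 9 of 31 activated genes with a promoter in the table (29.0%), in 1 of 9 repressed genes and in 0 of 16 proliferation genes. Between C and D, 6 of the 9 activated genes with the motif fell and none rose, with a median of -0.55. Of 20 tested without it, 10 fell and 2 rose, with a median of -0.74. Ldha, lactate dehydrogenase (-0.99 ± 0.22, adjusted p = 0.000882), and Nme1, a nucleotide kinase (-1.02 ± 0.20, adjusted p = 0.000274), fell with Myc, and 1 E-box window of each is shown. Both were chosen after their values were seen, as the largest falls with a motif before the start.
Ldha promoter, chr7:46845647-46845676, plus strand: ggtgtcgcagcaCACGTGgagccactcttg
Nme1 promoter, chr11:93968273-93968302, minus strand: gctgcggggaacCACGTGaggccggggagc
Their E-boxes begin 145 and 18 bases before the listed starts. Members with and without the motif both fell, and their difference was not tested.

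The genes whose log2 signals followed each member most closely over the 41 arrays were found by Pearson's r, given as a description, since all arrays share their populations and quality. For Myc these were Fbl, the nucleolar methyltransferase fibrillarin (r = 0.884), Rexo2, a mitochondrial exonuclease (0.87), and Crip1 (0.869). The mean signal of Fbl was 3884 in C and 1091 in D, then 1723 in E and 1696 in F. Fbl was also in the activated list, and fell by 1.75 ± 0.24 from C to D. For Mycn they were Il17rb (0.782), Wfdc18 (0.763) and Sytl1 (0.76). Il17rb had a mean signal of 2024 in CLP and at most 340 in any fraction.

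For Mxd3 the closest genes were Tacc3 (r = 0.826), Cdc20 (0.825) and Ncapg (0.804), all of mitosis. The mean signal of Cdc20 was 3613 in D and 982 in E. For Mxi1 they were Nfyb (0.817), Cnep1r1 (0.811) and Pfkfb3 (0.81), and for Mxd4 Atp6v0b (0.828), Creb3 (0.798) and Zswim8 (0.75). Max was closest to Nisch (0.742), Limd2 (0.734) and Arhgdib (0.698). Mxd1 was closest to Dhrs7 (0.778), Edem2 (0.737) and Tmem38b (0.733), and Mnt to Ifi27 (0.782), Pycrl (0.737) and Oas1a (0.737).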

How the data were processed

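The authors deposited 1 table of MAS5 intensity values for 45101 probe sets on 41 single-colour arrays, per the submitters' processing notes. RNA came from an Arcturus PicoPure kit and was amplified by NuGEN Ovation Pico, per the labels. Trimmed by 2% at each end, the mean signal was 500 on every array, and array medians ran from 69.1 to 153.1. The authors' scaling was kept. Build and detection calls are not given in the sources used here.

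Of these probe sets 64 were controls, 34945 had 1 gene symbol in the platform annotation, 932 several and 9160 none. Signals were taken as log2(signal + 32), which understates changes of low genes. A gene was tested if it reached the array median on 5 or more arrays; these 11951 genes went into limma 3.58.1 (trend and robust; R 4.3.3) in 1 fit of 7 population means, with Benjamini-Hochberg adjustment over them and a threshold of 0.05. The method was run on simulated data in which a gene had the same spread in every population. Unequal spreads between populations, as these arrays have, were not covered. No 2 arrays were identical (highest r between arrays 0.983). Named genes are the members, 3 most correlated genes each, up to 2 called genes per direction of each list, and the fixed markers. Lists covered Max and Mlx genes, corepressors, cofactors, turnover, activated, repressed and proliferation genes, and markers of B, NK, T, plasmacytoid dendritic, neutrophil and monocyte, and erythroid cells. 8 list symbols were not found. Members and lists were chosen with earlier results of these data known. Alternatives are given at the end.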

Additional observations from a re-analysis of the deposited data

Results flagged for a closer look

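Each population holds 5 or 7 arrays, and in 5 of the 56 sets of signals (8 genes in 7 populations) 1 array lay apart from the others by Dixon's test, which chance gives in about 1 set in 20. Mxd1 was 34.0 on array 1 of fraction B, against 242.6 to 724.0 on the others. Mxd1 was 1729.4 on array 2 of fraction E, against 548.1 to 740.7. Mxd3 was 2206.5 on array 5 of fraction D, against 3131.3 to 3463.6. Mxd4 was 21315.7 on array 4 of fraction A, against 5407.2 to 8644.7, and on that same array Mxi1 was 30.6, against 318.3 to 650.4.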

How the results depend on the processing

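Over the 64 member differences, settings that left out 1 array kept direction and call in 2562 instances, gained a call in 20, lost one in 11 and turned the sign of an uncalled difference in 31; the other settings kept them in 761, gained in 60, lost in 21 and turned an uncalled sign in 37. The only called reversal was Mxd1 from CLP to A, 0.62 with the mean of probe sets (adjusted p = 0.0499) against -0.03. Members called, of 8, also changed as follows. Fits of only the 2 populations compared (the median gene SD was 0.795 on the log2 scale in A and 0.255 in D) called 0 from A to B, 5 from CLP to B, 4 from B to C, 4 from C to D, 5 from D to E, 1 from E to F and 7 from CLP to F. Array weights called 2 from A to B, 5 from B to C, 4 from D to E, 1 from E to F and 7 from CLP to F. Of all 11951 genes, they called 1651 higher and 1776 lower from A to B, and 2725 and 1890 from B to C. From D to E these were 1569 and 1573, from E to F 206 and 264, and from CLP to F 2763 and 4464. Without A arrays 4, 6 and 7 the counts were 2 from A to B, 5 from CLP to B, 6 from B to C and 4 from D to E. Of 11610 genes tested there, 1590 were higher and 2085 lower from A to B, and 1636 and 3325 from CLP to B. From B to C these were 2843 and 1656, and from D to E 890 and 936. The mean of probe sets called 1 from CLP to B, 4 from B to C and 3 from D to E, and median centring 4 from B to C. Of 11050 genes tested with that mean, 683 were higher and 2591 lower from CLP to B. From B to C these were 2217 and 653, and from D to E 563 and 630. Median centring called 548 of all 11951 genes higher and 2290 lower from B to C. Leaving out 1 array gave 2 to 4 from A to B (2 without array 4 of A), 1 to 5 from B to C (1 without array 3 or 5 of C, 5 without array 4 of A) and 1 to 2 from D to E (2 without array 4 of A). The share over all genes is not given for fits leaving out 1 array. The scaling moved the median of all genes, from B to C 0.19 as deposited, 0.01 after quantile normalization and -0.23 after centring.

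Ratios called, of 11, were 1 (with a larger pseudocount) and 0 (mean of probe sets) from A to B, against 3, and with that mean 5 from CLP to B against 8, 2 from E to F against 6 and 4 from CLP to F against 7. From B to C there were 2 in place of 5 after quantile normalization, with that mean and without B arrays 1 and 4, and 2 to 5 leaving out 1 array. Mycn was not tested under the 75th percentile filter or with the mean of probe sets. The causes were not tested.

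No pairing by replicate number was seen: 9 of 111 same-number pairs had deviations correlated above 0.1 (median 0.007). Among pairs with other numbers, 45 of 606 did (median -0.002). As the deviations also carry array quality, this cannot show whether samples shared an animal or a sort. With the replicate block the member counts were 4, 4, 3, 3, 2, 1, 0 and 4 in the order A against CLP, B against A, B against CLP, C against B, D against C, E against D, F against E and F against CLP. Max joined from B to C (-0.63, adjusted p = 0.0447), and no other call changed. Of all 11951 genes, the replicate block called 1702 higher and 1091 lower from B to C, against 1693 and 1046 without it.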
